A study of Mus musculus with 7 samples.

Results

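Coding peaks of Srsf3 in the first coding exon were analysed. Such a peak had most of its nucleotides in the coding sequence (CDS) of the exon that holds the start codon, in the longest coding transcript of its gene (GENCODE annotation of mouse, GRCm39), among genes with 2 or more coding exons. The rule found 386 of 6396 peaks in the list from untreated cells and 665 of 8384 in the list from PDGF-AA-treated cells, 1048 of 14721 distinct intervals in all, with 3 intervals identical in both lists. They lay in 716 genes. The assay was eCLIP (enhanced UV-crosslinking and immunoprecipitation), which sequences the RNA fragments that UV light has joined to an immunoprecipitated protein, here Srsf3. The cells were iMEPM cells, immortalized palatal mesenchyme of the mouse embryo that, per the study's methods, came from a male embryo lacking Cdkn2a, a deletion carried by both groups. They were serum-starved and either left without ligand or given 10 ng/mL PDGF-AA for 1 hour. The untreated list rested on 2 Srsf3 libraries and the PDGF-AA list on 1 (labelled replicate 2), and peaks were called once per condition, so differences between conditions have no replicate check and were not tested. Neither scores nor read counts accompany the intervals, the depth behind a peak is therefore unknown, and a transcript without peaks cannot be told apart from one that is weakly expressed. Of 11 palatal mesenchyme markers, 9 carried a peak in either list (Msx1 and Osr2 did not), against 0 of 6 epithelial, 0 of 3 endothelial and 0 of 2 glial markers and 1 of 2 blood markers (Cd68, 1 PDGF-AA peak).

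Srsf3 is a small serine/arginine-rich (SR) protein that binds RNA through an RNA recognition motif and takes part in splicing, mRNA export and translation. SR proteins bind purine-rich and other enhancers in exons and help the spliceosome to recognise the splice sites that flank them. The first coding exon is bounded differently from an internal exon. At its 5′ side lies the start codon, often with the 5′ UTR in the same exon, and at its 3′ side lies a 5′ splice site, the exon end where U1 snRNP binds and the intron begins. First coding exons also tend to be rich in G and C, since many overlap CpG islands.

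The sequences below show the kinds of site the results turn on. Each is the coding part of a peak on the transcript strand, read from GRCm39 at the deposited coordinates, unless stated otherwise. The first set holds the peaks with the most copies of the GA-rich hexamers AGAAGA and GAAGAA, which are in capitals.
Knop1, PDGF-AA list, chr7:118451653-118451763, minus strand: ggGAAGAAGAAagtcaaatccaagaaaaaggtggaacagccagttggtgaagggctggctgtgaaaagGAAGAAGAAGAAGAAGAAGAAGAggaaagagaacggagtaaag
Bccip, PDGF-AA list, chr7:133311151-133311233, plus strand: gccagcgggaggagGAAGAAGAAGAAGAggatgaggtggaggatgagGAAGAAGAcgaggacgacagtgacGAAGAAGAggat
Ccdc80, PDGF-AA list, chr16:44916870-44917075, plus strand: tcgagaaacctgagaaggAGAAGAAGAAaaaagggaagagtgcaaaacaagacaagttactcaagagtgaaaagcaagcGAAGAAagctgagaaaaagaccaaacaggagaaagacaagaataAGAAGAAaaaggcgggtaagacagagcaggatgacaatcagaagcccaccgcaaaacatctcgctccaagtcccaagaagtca
Nrbp1, PDGF-AA list, chr5:31401251-31401335, plus strand: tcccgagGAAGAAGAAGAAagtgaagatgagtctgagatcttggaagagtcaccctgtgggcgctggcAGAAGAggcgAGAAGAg
Cdv3, untreated list, chr9:103242502-103242530, minus strand: tcgccaagagggacaAGAAGAAGAAGAAg
Cdv3, PDGF-AA list, chr9:103242481-103242546, minus strand: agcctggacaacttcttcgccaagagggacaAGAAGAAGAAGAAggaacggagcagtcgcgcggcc

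The second set comes from genes in which the start codon (in capitals) was covered in both lists.
Slc38a2, untreated list, chr15:96596541-96596611, minus strand: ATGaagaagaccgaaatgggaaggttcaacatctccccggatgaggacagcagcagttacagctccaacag
Asxl1, untreated list, chr2:153188254-153188309, plus strand: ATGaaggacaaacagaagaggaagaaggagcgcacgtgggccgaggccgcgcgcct
Tpm1, PDGF-AA list, chr9:66956302-66956414, minus strand: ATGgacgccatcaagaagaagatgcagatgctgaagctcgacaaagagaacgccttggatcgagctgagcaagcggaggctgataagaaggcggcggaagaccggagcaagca

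The third set holds untreated peaks made largely of G and C, with the Arid1a peak of the PDGF-AA list that overlaps one of them. They hold no GA hexamer and so no capitals.
Kmt2a, untreated list, chr9:44792496-44792526, minus strand: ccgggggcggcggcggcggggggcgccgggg
Kmt2a, untreated list, chr9:44792356-44792408, minus strand: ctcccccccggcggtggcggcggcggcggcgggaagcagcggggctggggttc
Arid1a, untreated list, chr4:133480544-133480581, minus strand: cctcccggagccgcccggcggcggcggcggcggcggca
Arid1a, PDGF-AA list, chr4:133480546-133480581, minus strand: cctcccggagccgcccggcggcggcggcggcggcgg
Arid1a, untreated list, chr4:133479879-133479912, minus strand: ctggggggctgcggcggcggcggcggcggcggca
Cdk13, untreated list, chr13:17978713-17978758, minus strand: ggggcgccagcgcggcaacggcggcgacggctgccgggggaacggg

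The fourth set runs over the exon end. Exon bases are in lower case and the first intron bases, at most 10, in capitals, while the coordinates are those of the whole peak.
Rcor1, untreated list, chr12:111006291-111006348, plus strand: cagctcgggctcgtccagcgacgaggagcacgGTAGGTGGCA
Rcor1, PDGF-AA list, chr12:111006282-111006344, plus strand: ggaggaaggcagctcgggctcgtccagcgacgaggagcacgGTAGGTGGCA
Srsf1, untreated list, chr11:87938799-87938886, plus strand: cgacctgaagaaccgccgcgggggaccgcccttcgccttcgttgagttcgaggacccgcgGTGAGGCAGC
Srsf1, PDGF-AA list, chr11:87938791-87938860, plus strand: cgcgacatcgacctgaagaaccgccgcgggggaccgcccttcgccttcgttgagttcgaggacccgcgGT
Vim, untreated list, chr2:13579763-13579823, plus strand: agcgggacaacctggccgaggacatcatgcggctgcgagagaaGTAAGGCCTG
Srsf10, untreated list, chr4:135583572-135583629, plus strand: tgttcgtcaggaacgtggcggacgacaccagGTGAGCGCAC

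First coding exons held more peaks per length than internal coding exons in both lists, and the excess was smaller in the PDGF-AA list. In 4956 bound genes with 3 or more coding exons, the first coding exon made up 8.19% of the CDS. It held 0.361 peaks per kb in the untreated list, against 0.269 in internal and 0.150 in last coding exons. In the PDGF-AA list the densities were 0.595, 0.524 and 0.452 peaks per kb. The ratio of first to internal exons was thus 1.34 without ligand and 1.13 with it, and the PDGF-AA list exceeded the untreated list 1.65-fold in first, 1.95-fold in internal and 3.01-fold in last coding exons. Over all genes with 2 or more coding exons, first coding exons held 11.9% of 3251 untreated coding peaks (Wilson 95% interval 10.8 to 13.0%) and 10.2% of 6495 PDGF-AA coding peaks (9.52 to 11.0%). These intervals, like all others given for a share, cover counting error only.

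**Figure D1:**
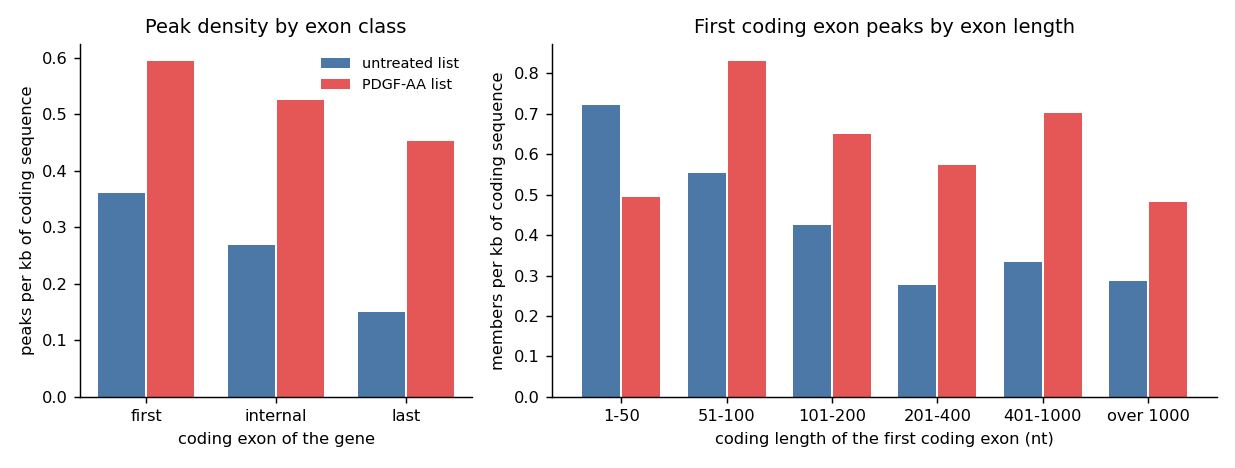
Left, peaks per kb of coding sequence in first, internal and last coding exons of 4956 bound genes with 3 or more coding exons; right, first coding exon peaks per kb by the coding length of that exon, over 5106 bound genes with 2 or more coding exons. Blue bars are the untreated list and red bars the PDGF-AA list; the untreated bar is the higher of the pair only in exons of 1 to 50 nt (0.721 against 0.494 per kb).

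The exons that held peaks were long. Their median coding length was 241 nt (95% interval of the median 192 to 305) in the untreated list and 291 nt (256 to 336) in the PDGF-AA list, against 102 nt (99 to 105) in 4390 bound genes without such a peak. A longer exon is a larger target, and per kb the density was not highest in the longest exons. Of 157 exons longer than 1000 nt, 35.0% held an untreated and 58.0% a PDGF-AA peak. The shortest class was the only one with more untreated than PDGF-AA peaks. The 994 exons of at most 50 coding nt held 19 untreated and 13 PDGF-AA peaks, a ratio of 0.684. PDGF-AA peaks were the more numerous in each of the 5 longer classes, by up to 2.11-fold. The counts in the shortest class are small. Peaks lying mostly outside so short a coding sequence were left out, and PDGF-AA peaks were wider (median 48 against 41 nt). The part of peak width in these counts was not tested. Exons with a peak in both lists had a median of 442 nt, those with an untreated peak alone 156 nt, and those with a PDGF-AA peak alone 244 nt. The untreated-only exons were also richer in G and C (median 68.0%, 66.3 to 69.5%, against 61.2%, 59.7 to 62.3%, in the PDGF-AA-only exons), and more of them were the first exon of the transcript (80.5% against 63.2%).

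Sites were kept to an unequal degree. Of the 386 untreated peaks, 180 (46.6%, 41.7 to 51.6%) overlapped a PDGF-AA peak by at least 1 nt on the same strand, beside 38.8% of all untreated peaks. This was less than for untreated peaks in internal (57.8%) and last coding exons (78.1%). Of the 665 PDGF-AA peaks, 187 (28.1%, 24.8 to 31.7%) met one from untreated cells, beside 29.6% of all PDGF-AA peaks, and internal (29.5%) and last exons (26.8%) had like shares. By gene, 187 genes had a first coding exon peak in both lists, 54.8% of the 341 untreated and 33.3% of the 562 PDGF-AA genes. Of the 154 genes with such peaks in the untreated list alone, 100 (64.9%) had some peak in the PDGF-AA list, and of the 375 genes with such peaks in the PDGF-AA list alone, 176 (46.9%) had some untreated peak. For 56.3% of the untreated and 59.3% of the PDGF-AA genes, the first coding exon held every peak of the gene in that list.

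Pooled over exon lengths, untreated peaks covered the last 50 nt of the exon more than the positions before it, and PDGF-AA coverage was more even, but the order of the lists depended on exon length. Coverage counted every peak of a list that touched the exon, also those lying mostly outside its coding sequence. Over the 5106 first coding exons of bound genes, untreated peaks covered 0.872% of positions 51 to 100 nt before the exon end, 2.63% at 26 to 50 nt and 4.08% in the last 25 nt. PDGF-AA peaks covered 3.39%, 4.44% and 4.10% of the same positions. The PDGF-AA list therefore exceeded the untreated list 3.88-fold at 51 to 100 nt from the exon end and 1.01-fold in the last 25 nt. Within those 25 nt the order of the lists turned. Untreated and PDGF-AA coverage was 3.81% and 4.93% at position -25, and 4.02% and 3.17% at position -2, counted back from the exon end (-1). At the other end the ratio changed less, from 1.99 in the first 25 coding nt to 1.76 at 26 to 50 nt. For first coding exon peaks alone, the median peak centre lay at 71.5% of the exon's coding length (67.0 to 77.0%) in the untreated list and at 64.5% (60.8 to 68.9%) in the PDGF-AA list. The median 3′ end of a peak lay 22.5 nt before the exon end in the untreated list and 67 nt before it in the PDGF-AA list. Untreated peaks lay in shorter exons, so positions were also compared within length classes. In exons of over 100 and up to 400 coding nt, the centre lay in the last of 3 equal parts of the exon for 75.2% of untreated (67.7 to 81.4%) and 55.6% of PDGF-AA peaks (49.5 to 61.5%), and in exons of at most 100 nt for 52.1% (40.8 to 63.1%) and 37.2% (28.1 to 47.3%). In exons over 400 nt, which held 164 untreated and 310 PDGF-AA peaks, the order turned, to 39.6% (32.5 to 47.3%) and 46.8% (41.3 to 52.3%).

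**Figure D2:**
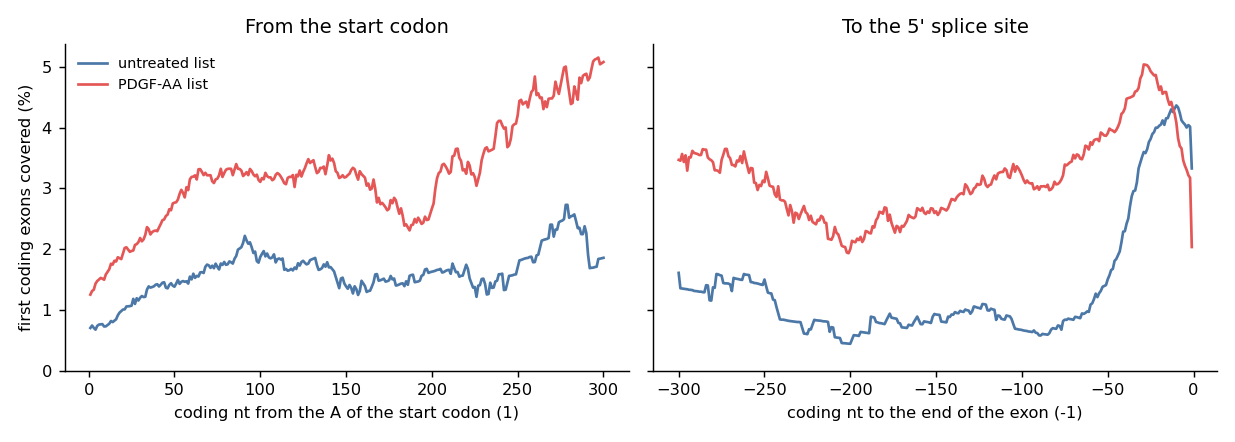
Share of first coding exons (y, %) covered by a peak at each coding position, counted from the A of the start codon (left) and back from the exon end (right), for the untreated (blue) and PDGF-AA (red) lists. Every peak that touched the exon was counted, also those lying mostly outside its coding sequence. Exons shorter than a position drop out of it, so the number of exons falls from 5106 to at most 1344 beyond 200 nt. The curves cross in the last 25 nt, where coverage over all positions was 4.08% and 4.10%.

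Peaks that ran past the exon end into the intron were more frequent in the untreated list. Of the untreated peaks, 70 (18.1%, 14.6 to 22.3%) reached more than 1 nt beyond the exon end, against 29 PDGF-AA peaks (4.36%, 3.05 to 6.19%). They reached a median of 16.5 nt into the intron in the untreated list (range 2 to 36 nt) and 6 nt in the PDGF-AA list (range 2 to 22 nt). The rule required most of a peak in the coding sequence, so none could reach further into the intron than its coding part. Peaks lying mostly in the intron were left out, which limits both the shares and the reach. With more than 10 nt required, 48 untreated (12.4%) and 9 PDGF-AA peaks (1.35%) remained. Among peaks with no partner in the other list the shares were 23.8% and 2.51%, and among shared peaks 11.7% and 9.09%. The order was the same in exons of at most 100 coding nt (31.5% and 6.38%), of over 100 and up to 400 nt (28.9% and 7.66%) and over 400 nt (2.44% and 0.968%). Internal coding exon peaks showed it too, with 11.7% and 1.59% past the exon end. The printed peaks of Rcor1, a corepressor subunit, and of Srsf1, another SR protein, are shared sites that reached further in the untreated list, by 28 against 2 nt in Srsf1 and by 26 against 22 nt in Rcor1. Shared sites also went the other way, with 6 nt untreated and 12 nt PDGF-AA in Hnrnpdl, which encodes an RNA-binding protein, and 2 and 4 nt in Rad23b, a DNA repair factor. The untreated peaks of Vim (vimentin, a mesenchymal filament protein) and Srsf10 (an SR protein) that crossed this boundary had no partner in the PDGF-AA list.

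Pooled over exon lengths, stopping at the exon end was about as frequent in both lists. The 3′ end lay within 1 nt of the exon end for 62 untreated (16.1%, 12.7 to 20.1%) and 117 PDGF-AA peaks (17.6%, 14.9 to 20.7%). On the plus strand 27 of 28 untreated and 54 of 62 PDGF-AA peaks of this kind ended 1 nt after the annotated exon end, and on the minus strand 32 of 34 and 53 of 55 ended 1 nt before it, so the deposited intervals appeared displaced by 1 nt in genome coordinates. In exons of at most 100 coding nt, 28.8% of untreated (19.7 to 40.0%) and 41.5% of PDGF-AA peaks (32.1 to 51.6%) stopped at the exon end. The shares were 22.1% and 24.5% in exons of over 100 and up to 400 nt, and 4.88% and 4.52% over 400 nt. Of internal coding exon peaks, 29.1% and 21.3% stopped there. The start codon was covered in full by 20 untreated (5.18%, 3.38 to 7.87%) and 46 PDGF-AA peaks (6.92%, 5.23 to 9.10%). In exons of at most 100 coding nt these shares were 19.2% and 27.7%, and in exons over 400 nt 0.610% and 0.968%. Overlapping peaks covered the start codon in both lists in 7 genes, among them Slc38a2 (an amino acid transporter), Asxl1 (a chromatin regulator), Tpm1 (tropomyosin) and Etf1 (the translation release factor eRF1).

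The sequence under the peaks differed between the lists and from the exons around them. The median GC content was 64.7% (62.9 to 66.7%) for untreated peaks and 60.0% (58.8 to 60.7%) for PDGF-AA peaks, above internal coding exon peaks (58.3% and 56.5%). Shared peaks overlap each other, by 1 nt or more, and so read in part the same bases in both lists. Their likeness is in part fixed by this, and a difference has more room to appear in the unshared peaks. Shared peaks had a median of 60.0% in the untreated and 59.3% in the PDGF-AA list, whereas unshared peaks had 69.6% (67.6 to 71.7%) and 60.0% (59.1 to 61.0%). Hexamers of G and C alone occurred 159 times per kb in unshared untreated peaks and 63.5 times in shared untreated peaks. The rest of the exons, pooled over those with shared and with unshared untreated peaks, held 58.1 per kb. The exons of the unshared peaks were not measured apart, so 58.1 per kb is not their own background. In the PDGF-AA list the unshared peaks held 46.1 and the rest of the exons, pooled in the same way, 46.4 per kb. A run of at least 20 nt of G and C alone was present in 11 of 206 unshared untreated peaks (5.34%, 3.01 to 9.31%) and in 1 of 478 unshared PDGF-AA peaks (0.209%). The printed Kmt2a peak of 31 nt consisted of G and C throughout. Exon GC content and crossing of the exon end moved with these values, and their part in them was not tested.

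GA-rich hexamers were denser under the peaks of both lists than in the rest of their exons, though most peaks held none. AGAAGA and GAAGAA, searched on the transcript strand with overlapping copies counted, occurred 8.06 times per kb in untreated peaks against 1.53 in the rest of their exons, and 10.8 against 1.84 times in the PDGF-AA list. Internal coding exon peaks held 11.8 and 12.4 per kb. The study picked both hexamers from these libraries, so their excess is no independent result. A copy was present in 50 untreated (13.0%) and 157 PDGF-AA peaks (23.6%). By sharing, 7.28% of unshared untreated and 23.4% of unshared PDGF-AA peaks held a copy, against 19.4% and 24.1% of shared peaks. A wider peak has more room for a copy, and median widths were 41 nt (untreated) and 48 nt (PDGF-AA). Per kb, unshared peaks held 5.31 (untreated) and 11.7 copies (PDGF-AA). In shared peaks the order turned, to 10.1 and 9.11 copies per kb. Hexamers were ranked by their density in peaks over the rest of the exons, 2836 of them for untreated and 3619 for PDGF-AA peaks. In both rankings ACGACG came first and CGACGA next (log2 ratios of 3.37 and 3.04, and of 2.94 and 2.86). Copies of either were spread over 26 genes (untreated) and 46 genes (PDGF-AA), with at most 8 and 10 in 1 gene, Zcchc8, which encodes a subunit of a nuclear exosome complex. CACACA was among the motifs the study found enriched in its untreated peaks, which include intronic ones. Here it was rare, with 2 copies under untreated and 5 under PDGF-AA peaks. These gave 0.140 and 0.163 per kb, against 0.235 and 0.262 beside the peaks, and so few copies cannot settle a difference in density. No peak held a tandem CA run of 12 nt.

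**Figure D3:**
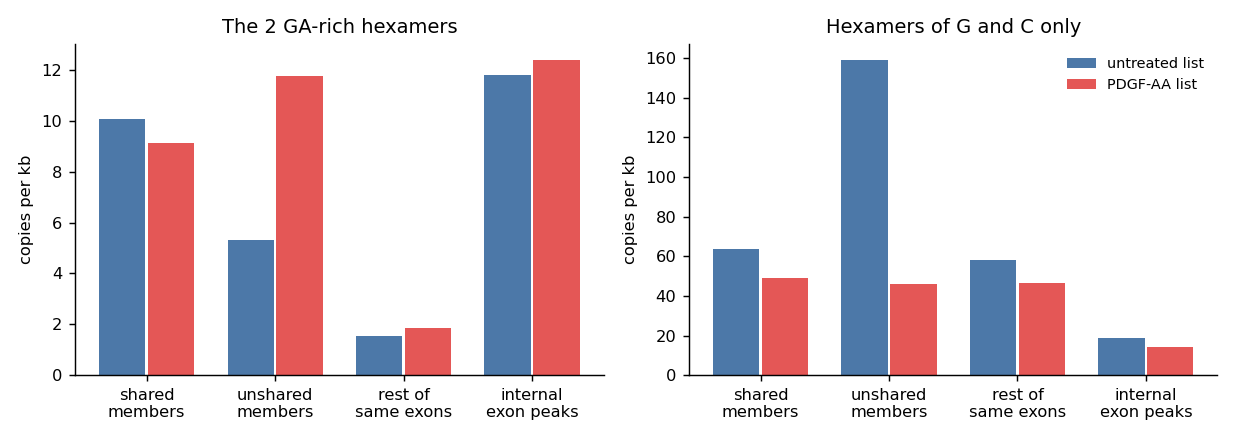
Copies per kb (y) of AGAAGA or GAAGAA (left) and of hexamers made of G and C alone (right) in first coding exon peaks with (shared) or without (unshared) an overlapping peak in the other list, in the rest of the same exons, and in internal coding exon peaks, for the untreated (blue) and PDGF-AA (red) lists. The rest of the exons was pooled, in each list, over exons with shared and with unshared peaks. Unshared untreated peaks held 5.31 GA hexamers per kb, against 11.7 in unshared PDGF-AA peaks, and 159 G and C hexamers against 46.1.

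In the encoded protein, codons for glutamate were more frequent under the peaks than beside them in both lists, and codons for lysine in all but the unshared untreated peaks. Glutamate codons made up 11.5% of codons wholly under untreated peaks against 6.69% elsewhere in the same exons, and 13.6% against 7.05% in the PDGF-AA list. Lysine codons made up 7.77% against 4.70%, and 9.25% against 4.93%. Leucine codons were less frequent under peaks in both lists (5.76% against 8.48%, and 5.69% against 8.45%). In shared peaks glutamate (12.5% and 12.6%), lysine (10.6% and 10.4%) and aspartate (7.19% and 7.63%) had near-equal shares in both lists. Overlapping peaks read in part the same codons. In unshared untreated peaks alanine (14.1%, 12.7 to 15.7%) and glycine (12.8%, 11.5 to 14.3%) led, with lysine at 4.05% and aspartate at 3.68%. In unshared PDGF-AA peaks alanine was 7.84% (7.23 to 8.50%), glycine 7.13%, lysine 8.57% and glutamate 14.1%. Codons for alanine and glycine begin with GC and GG, so this measure and the GC content overlap. AGAAGA and GAAGAA both contain GAA, a glutamate codon, and AAG, a lysine codon. The glutamate and lysine shares therefore overlap with the counts of these hexamers and are no independent result.

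**Figure D4:**
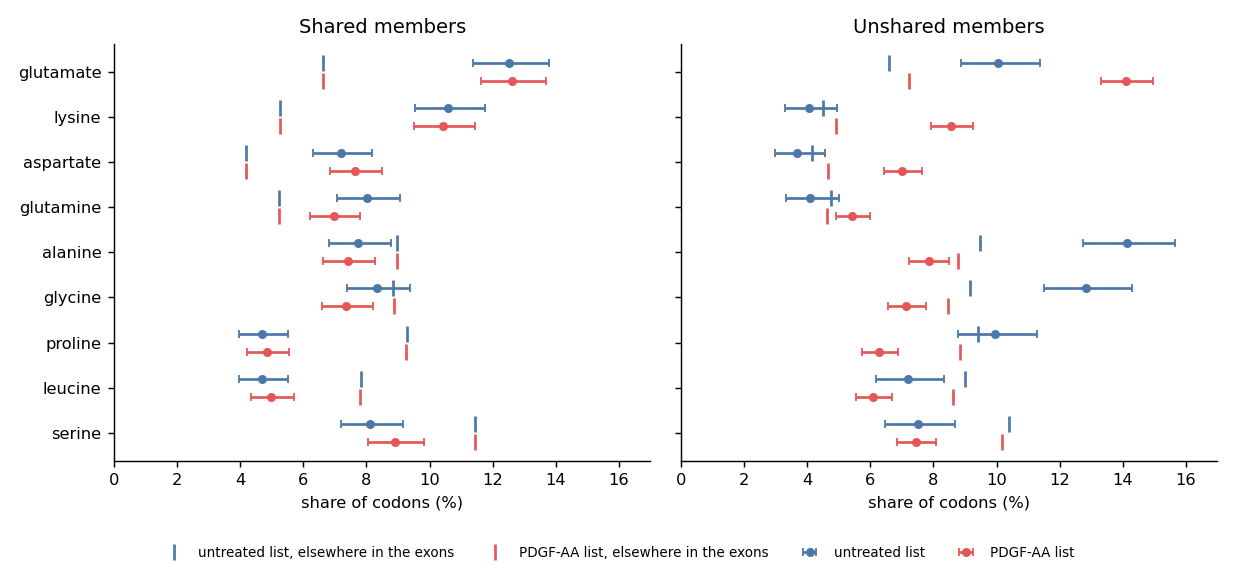
Share of codons (x, %) for 9 amino acids (y) under shared (left) and unshared (right) first coding exon peaks, as points with Wilson 95% intervals, with the share elsewhere in the same exons as vertical ticks (untreated blue, PDGF-AA red). In unshared untreated peaks alanine reached 14.1% against 9.49% elsewhere, and in unshared PDGF-AA peaks glutamate reached 14.1% against 7.21%.

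The 10 genes with the most peaks had long first coding exons, and all but Fat1 had a site that overlapped between the lists. Most genes had 1 such peak (309 of 341 untreated and 479 of 562 PDGF-AA genes). Tcf20, a transcriptional coregulator, had 4 untreated and 3 PDGF-AA peaks in a first coding exon of 5736 nt, and its 3 PDGF-AA peaks each overlapped an untreated one, at 935 to 1049, 2030 to 2091 and 4779 to 4914 nt from the A of the start codon. Rai1, a transcription regulator, had 4 and 2 peaks, and both PDGF-AA peaks overlapped untreated ones. Mn1, a coregulator required for palate growth in mice, had 2 and 3 peaks. Its widest, of 136 and 141 nt, lay on a CAG and CAA glutamine repeat at the same place in both lists, and its PDGF-AA peak at 3372 to 3436 nt had no untreated partner. Lrrc8a, a subunit of the volume-regulated anion channel, had 4 peaks in each list, of which a pair in each list differed by 1 nt at 1 end and marks a single site. Ext1, which polymerises heparan sulfate, had 2 and 3 peaks, and Rrbp1, a ribosome-binding protein of the endoplasmic reticulum, 3 and 2.

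Other genes had peaks mostly or wholly in 1 list. Fat1, an atypical cadherin, had 5 untreated peaks between 302 and 989 nt from the A of the start codon, 0 PDGF-AA peaks in this exon and 5 PDGF-AA peaks elsewhere in the gene. Arid1a, a subunit of the BAF chromatin remodeller, had 5 untreated peaks and 1 PDGF-AA peak, all with 83.8% or more G and C. Kmt2a (a histone H3 lysine methyltransferase) and Cdk13 (a kinase of RNA polymerase II) had 2 untreated and 0 PDGF-AA peaks each, although both had PDGF-AA peaks in other parts of the gene (6 and 1). Arhgap35, a GTPase-activating protein, Snap47 and Psme3ip1 had 2 and 0. In the other direction Rbm15, a component of the RNA m6A methylation complex, had 0 untreated and 4 PDGF-AA peaks and no other peak. Osr1, a transcription factor of craniofacial mesenchyme, had 0 and 3 peaks. They lay at 283 to 339, 480 to 538 and 623 to 662 nt in a coding exon of 665 nt, and the gene had 1 untreated peak elsewhere. Wnk1, a kinase that controls ion cotransporters, had 2 and 5, both untreated ones overlapped. Luzp1, 1700017B05Rik and Zfp407 had 0 and 3. Some of these counts include neighbouring peaks with 1 nt between them, as in Fat1, Rbm15 and Snap47. With peaks within 50 nt merged, 364 untreated and 614 PDGF-AA peaks remained.

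The widest peaks were found in 5 genes and reached furthest in the PDGF-AA list. The PDGF-AA peak of Ccdc80, a matrix protein, was 206 nt wide and held 7 GA hexamers, and the untreated peak within it was 113 nt wide. In Bptf, a subunit of the NURF remodeller, the PDGF-AA peak was 172 nt and the untreated peak 90 nt, both beginning at position 456. Hnrnpu, a nuclear matrix RNA-binding protein, had peaks of 146 and 153 nt, Dido1 a PDGF-AA peak of 172 nt, and Rrbp1 a PDGF-AA peak of 174 nt over an untreated peak of 102 nt. Knop1, a lysine-rich nucleolar protein, had the most GA hexamers in 1 peak, 15, in the PDGF-AA list alone.

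Fixed gene lists were counted beside all bound genes, of which 716 of 5106 (14.0%) held a first coding exon peak. Among palate and mesenchyme transcription factors the count was 12 of 32 bound genes (37.5%), with 8 untreated and 16 PDGF-AA peaks. Besides Osr1 and Mn1 these included Prrx1, Tbx3, Dlx5 and Tcf12 (1 peak in each list), Prrx2 (1 untreated) and Tead2 and Pbx2 (1 PDGF-AA each). The peaks of Tbx3 and Dlx5 overlapped, and those of Prrx1 and Tcf12 did not. For PDGF receptor, PI3K and Akt signaling it was 6 of 26 (23.1%), with Irs2, an adaptor of insulin and growth factor receptors, at 2 untreated and 1 PDGF-AA peak, and Rptor, Foxo1, Foxo3 and Shc1 at 1 PDGF-AA peak each. For endosomal trafficking it was 3 of 19 (15.8%). These were Wdr81, Appl1 and Ehd1, each with 1 PDGF-AA and 0 untreated peaks in the exon. The Appl1 peak began in the 5′ UTR and covered the start codon. For SR and splicing genes it was 9 of 40 (22.5%), with Srsf1, the kinase Clk1 and Hnrnpu shared between the lists. In this exon Srsf10, Clk3, U2af1 and Ddx5 had peaks in the untreated list alone, and Srsf9 and Mbnl2 in the PDGF-AA list alone. Elsewhere in the gene Clk3 and U2af1 had PDGF-AA peaks, and Mbnl2 had untreated peaks. Ribosomal and translation genes had 10 of 59 (16.9%), of which Eef1a1, Eef1d, Eif3j1, Eif4g3 and Rplp1 had overlapping peaks. Eef1a1 and ribosomal protein genes have near-identical pseudogene copies, so their peaks are uncertain. Matrix and adhesion genes had 6 of 34 (17.6%) and chromatin genes 3 of 30 (10.0%), which held 7 untreated and 3 PDGF-AA peaks. The median coding length of the first coding exon was 153.5 nt over the bound palate and mesenchyme transcription factors and 112 nt over all bound genes, and its part in the counts was not tested.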

How the data were processed

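Srsf3 eCLIP peaks were analysed from 1 deposited list per condition. Per the study's methods, the authors removed adapters (cutadapt 1.18), collapsed duplicates by unique molecular identifier, discarded reads matching repetitive elements and aligned the remainder to GRCm39 (STAR 2.7.9, versions from the submitters' processing notes). The omniCLIP program called the peaks, and RCAS assigned genes. Which library served as background is not given in the sources used here. Each deposited value is a peak interval with a gene and no score, height or count. Removal of repeats can lower peak numbers in repetitive codons, and a list from 2 libraries need not be as sensitive as a list from 1.

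Intervals were placed on GENCODE M39 with Python 3.11.15 and figures drawn with matplotlib 3.10.9. Of transcripts with an annotated start codon, that with the longest CDS was used, and a peak needed over 50% of its nucleotides in its first coding exon. Repeated intervals were counted once. Intervals were used as deposited, although they appear displaced by 1 nt. Shares carry Wilson 95% intervals and medians order-statistic 95% intervals, and no p-value was computed. Hexamers needed 20 copies over peaks and remaining exon sequence, with a pseudocount of 0.5. Placement was checked on simulated data. Of the start codons, 708 of 716 were ATG. Up to 10 percentage points above that limit lay 38 untreated and 11 PDGF-AA peaks, and as far below it, left out, 29 and 10.

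Named genes were the 10 with the most peaks, the 8 with the largest excess in each list, the 5 with most GA hexamers, the 5 widest, 5 with the start codon covered in both lists, and those of the fixed gene lists with several peaks or peaks in both lists. Zcchc8, Vim, Srsf10, Rcor1, Hnrnpdl and Rad23b, and single-peak genes of the lists, were named after their values were seen. Peaks, genes and lists were chosen with earlier results of these data known. Input and IgG libraries and the lists of condition-only peaks were not analysed. Some genes that met these rules are not reported here.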

Additional observations from a re-analysis of the deposited data

How the results depend on the processing

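Of 153 values recomputed for 21 results under 9 alternative settings, 140 stayed within the stated range of their own main value and 13 moved beyond it. The order of the lists turned for 3 of the results, named with their values below. The settings were the Ensembl canonical transcript, the gene in the caller's peak name, intervals moved back by 1 nt, the whole interval inside the exon CDS, genes with a peak in both lists, peaks within 50 nt merged, an overlap of at least 50% of the peak, a tolerance of 3 nt at the exon end, and genes whose coding transcripts share 1 annotated start codon. The last setting was chosen after seeing the data, as were the results on peaks crossing the exon end and on coverage ratios. Restricting to genes with a peak in both lists left 443 PDGF-AA peaks, put 9.41% of PDGF-AA coding peaks in the first coding exon, and raised the overlapping shares to 54.7% (untreated) and 42.2% (PDGF-AA), since genes with no peak in the other list were left out. It also turned the ratio of coverage in the last 25 nt from 1.01 to 0.914. With 2 further settings that ratio was 1 or just below (1 with the canonical transcript, 0.999 with the caller's gene). Neither list is therefore called higher over these 25 nt as a whole. Requiring an overlap of 50% of the peak lowered the PDGF-AA share to 23.0%. Genes with 1 annotated start codon gave 11.4% of PDGF-AA coding peaks in the first coding exon. With the whole interval inside the exon CDS, 0% of peaks crossed the exon end in either list by construction, 0.73% and 0.552% covered the start codon and 11.7% and 10.9% ended at the exon end, so the untreated share became the higher in both. With a tolerance of 3 nt, 2.86% of PDGF-AA peaks crossed the exon end. Leaving out a library was not possible, because each list was called once per condition. No paired analysis was possible because each condition has 1 list. The study's methods give mapped reads per library. Without read counts per peak, the limits that depth sets on single peaks could not be assessed.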
